A study of Mus musculus with 15 samples.

Results

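Rps19bp1, Sirt1, Rps19, Trp53, Mdm2 and Mdm4 were taken by symbol from count tables of 78317 genes, and all 6 passed the filter on low counts that left 20269 genes for testing. Rps19bp1 codes for a small nucleolar protein, also called active regulator of SIRT1, that binds the ribosomal protein RPS19 and the deacetylase SIRT1, and its gene is the annotated neighbour of Atf4. Messenger RNA was measured by RNA-seq in ventricles dissected at embryonic day 11.5 from C57BL/6 mouse embryos of 2 lines in which Cre recombinase removes part of Atf4, a transcription factor gene of the integrated stress response. In the line called CDS, loxP sites flank Atf4 exons 2 and 3 and the polyadenylation signal is kept. In the line called PAS, loxP sites flank that signal. Both were crossed with Xmlc2-Cre, which acts in cardiomyocytes, and was not directed at other cells of the dissected ventricle, such as endothelium, epicardium and blood. The knockout and control groups had 4 libraries each in the CDS line, and 4 and 3 in the PAS line, all untreated. The labels do not say whether the controls carried floxed alleles or Cre.

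p53, the product of Trp53, is a transcription factor that slows the cell cycle or starts cell death under stress. It switches on Mdm2, whose product is a ubiquitin ligase that marks p53 for destruction, and the related protein MDM4 binds p53 and masks its activation domain; mouse embryos that lack Mdm2 or Mdm4 die early unless p53 is removed as well. SIRT1 uses NAD to take acetyl groups off p53 and other proteins, and RPS19BP1 was described as raising that activity. RPS19 is a protein of the small ribosomal subunit, and shortage of it is known to raise p53 through ribosomal proteins that bind MDM2. Much of this regulation acts on proteins, whereas only messenger RNA was measured here.

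On GRCm39, the build of the deposited counts, Rps19bp1 (ENSMUSG00000051518.9) lies on chromosome 15 from 80144816 to 80148516 on the minus strand and has 4 exons with 1083 exonic bases. Atf4 lies on the plus strand from 80139385 to 80141742, so the 2 genes are transcribed towards each other and their 3′ ends are 3073 bases apart. Mief1, a mitochondrial fission gene, ends 1812 bases before Atf4 begins. No exonic base of Rps19bp1 is shared with another annotated gene. Sirt1 (ENSMUSG00000020063.17) lies on chromosome 10 from 63154784 to 63217483 on the minus strand. Rps19 (ENSMUSG00000040952.17) lies on chromosome 7 from 24583796 to 24589231 on the plus strand. Trp53 (ENSMUSG00000059552.14) occupies 69471185 to 69482699 on the plus strand of chromosome 11. Mdm2 (ENSMUSG00000020184.16) occupies 117524780 to 117546663 on the minus strand of chromosome 10, and Mdm4 (ENSMUSG00000054387.14) occupies 132887222 to 132958299 on the minus strand of chromosome 1. Opposite-strand genes overlap 5.91% of the exonic bases of Sirt1, 7.94% of those of Rps19 and 4.07% of those of Mdm2. Since the counting set no strand option, reads of such pairs cannot be told apart. The partners with shared exonic bases held at most 50 counts each over the 15 libraries, and reads left uncounted were not examined. Rps19 has 14 named pseudogenes. The pseudogene with most counts, Rps19-ps6, held 0.4% as many as Rps19, and the figures were 0.256% for Trp53-ps and 0.033% for Mdm4-ps.

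The 250 bases before the start site are shown for Rps19bp1, whose RNA changed, and for Mdm2, the gene of the p53 loop with the narrowest range over the libraries. Sequences are from RefSeq on GRCm38.p6, another build than that of the counts, and run 5′ to 3′ on the strand of the gene; capitals mark the letters CCAAT read on either strand.
Rps19bp1 (chr15:80264307-80264556, minus strand): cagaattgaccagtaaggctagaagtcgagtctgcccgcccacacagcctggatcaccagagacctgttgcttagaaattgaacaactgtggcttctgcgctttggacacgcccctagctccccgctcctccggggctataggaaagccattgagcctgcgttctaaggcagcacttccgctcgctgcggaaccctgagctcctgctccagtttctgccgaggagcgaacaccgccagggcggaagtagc
Mdm2 (chr10:117710759-117711008, minus strand): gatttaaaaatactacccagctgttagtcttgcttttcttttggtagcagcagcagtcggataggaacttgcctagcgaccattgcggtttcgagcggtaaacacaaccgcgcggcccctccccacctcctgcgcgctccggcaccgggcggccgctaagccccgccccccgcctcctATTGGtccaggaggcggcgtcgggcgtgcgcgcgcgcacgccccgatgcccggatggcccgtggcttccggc
G and C made up 58.8% of the Rps19bp1 stretch and 65.6% of the Mdm2 stretch, against a median of 52.4% over 32851 RefSeq windows of the same length. Both strands of windows from 250 bases before to 50 bases after each start were searched for 6 short motifs. The first was TTGCATCA, the composite element bound by ATF4 with C/EBP proteins and held by 0.895% of all windows. Next were the cAMP response element TGACGTCA (1.79%) and the E-box CACGTG (7.15%). For p53, 1 form of the paired core was searched, CATG on either side of 6 bases of any kind (0.712%). The last were CCGGAAGT, an extended form of the ETS site (3.89%), and CCAAT (37.4%). None of these 6 exact motifs was found in the Rps19bp1 window, and shorter or variant forms were not searched. TTGCATCA and this form of the paired p53 core were in none of the windows of the 6 genes, of which Rps19 has 3, Mdm4 has 2 and the others have 1 each. The Sirt1 window held CACGTG at 115 and at 43 bases before the start, 1 of the 3 Rps19 windows (chr7:24884663-24884962) held it at position -120 from its start, the Trp53 window held CACGTG and CCAAT, and the Mdm2 window held 1 CCAAT. A match describes letters only, and a missing match says only that those letters are not in this window.

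Gene counts summed to between 30376847 and 46472141 per library for CDS and between 22623499 and 29315724 for PAS. The lines were counted in separate runs, so line and run cannot be told apart in any comparison of them. The labelled tissue was checked by markers. All 12 cardiomyocyte markers were detected in every group, with summed levels of 36400 to 43000 normalised CPM (counts brought to the same library size), against 28 to 46.3 for 6 neuronal markers and 13.5 to 25.9 for 6 liver markers. The library labelled CDS knockout 3 stood apart from the rest of its group, with a chi-square per degree of freedom of 43 to 53.4 against its replicates, where the other replicate pairs gave 3.11 to 12.1. Markers of the choroid plexus, a tissue of the brain, summed to 153 CPM in CDS knockout 3 and 226 in CDS knockout 4, to 19.2 to 54.4 in the other CDS libraries and to at most 3.72 in the PAS line. Of these 5 markers Otx2 had a mean under 1 CPM, and which of them carried the sums was not examined. The change of Rps19bp1 is therefore also given without CDS knockouts 3 and 4. In bulk tissue, fewer cells of a type and less RNA per cell cannot be told apart.

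Atf4, the targeted gene, separated knockouts from controls in both lines, in opposite directions. In the libraries labelled CDS knockout its level was 39.6, 48.1, 45.3 and 45.0 normalised CPM, and in the CDS controls it was 114, 112, 116 and 115. In those labelled PAS knockout its level was 304, 292, 288 and 259 CPM, against 98.9, 92.2 and 100 in the PAS controls. The Atf4 count was thus 0.389-fold in the CDS line (95% confidence interval 0.361 to 0.42, edgeR quasi-likelihood adjusted p = 1.25e-13) and 2.94-fold in the PAS line (2.71 to 3.2, adjusted p = 4.25e-14). Because the count of the targeted gene was higher in them, the libraries of the PAS group are named by their label throughout. Gene counts cover all exons together and do not show which part of Atf4 the reads came from.

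Rps19bp1 fell in the CDS knockouts and was the single called gene of the 6. Its level was 8.75, 8.71, 8.48 and 10.3 normalised CPM in the CDS knockouts, from 302 to 378 counts per library. In the CDS controls it was 14.6, 13.2, 13.4 and 14.4 CPM, from 420 to 669 counts. All 4 knockouts lay below all 4 controls, as groups lay wholly apart in 2.8% of all genes tested. The highest knockout, number 4, was 0.739 times the mean of the controls where the other 3 were 0.61 to 0.63 times. The means were 9.05 ± 0.814 and 13.9 ± 0.712 CPM (SD, n = 4 each), a log2 change of -0.62 ± 0.08 (SE). This is 0.65-fold, with a 95% confidence interval from 0.576 to 0.734 and an adjusted p of 0.000753 in edgeR's quasi-likelihood test, which placed it 6th of 20269 genes by p. Of the 6 genes 1 was called, against 0.0543% of all genes tested. Without CDS knockouts 3 and 4 the log2 change was -0.67 with an edgeR adjusted p of 0.00608.

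In the CDS comparison 11 genes were called, Rps19bp1 included. Of these, 9 were lower in the knockouts, namely Atf4, Rps19bp1, the aminoacyl-tRNA synthetase genes Iars, Cars, Yars, Aars and Nars, the mitochondrial folate enzyme gene Aldh1l2 and the serine synthesis gene Phgdh. After Atf4, Rps19bp1 had the largest fall of the 9, with the next being Cars at a log2 change of -0.46. The 2 higher genes were Cacna1i, with a log2 change of 7.42 (edgeR adjusted p = 1.33e-12), and 1810010H24Rik, with 1.27 (edgeR adjusted p = 0.000404). Where these 2 genes lie relative to Rps19bp1 was not examined. The summed level of 8 endothelial markers, all detected, was lower in the CDS knockouts (1520 to 1610 CPM) than in the CDS controls (1650 to 1720 CPM). None of these endothelial markers was called by edgeR in the CDS line. Sums of every other marker set overlapped between the 2 groups. The summed cardiomyocyte markers were 36400 to 40300 CPM in the CDS knockouts and 39100 to 43000 CPM in the CDS controls. Epicardial markers also leaned lower in the knockouts (315 to 339 against 326 to 372 CPM). Mesenchyme markers (3130 to 3740 against 2810 to 3410 CPM) and neuronal markers (33.4 to 46.3 against 28.0 to 37.2 CPM) leaned higher. The part of any of these differences in the change of Rps19bp1 was not tested.

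Rps19bp1 was not called in the PAS line. Its level was 16.1, 16.0, 15.4 and 12.4 CPM in the libraries labelled PAS knockout and 14.4, 13.4 and 13.9 CPM in the PAS controls. Thus 3 of the 4 libraries lay above every control and the remaining one, number 4, below every control. That library also had the lowest Atf4 level of its group. The means were 15 ± 1.75 (SD, n = 4) and 13.9 ± 0.535 CPM (SD, n = 3), a log2 change of 0.11 ± 0.09 (SE) that was not called (edgeR adjusted p = 0.988). The interval of the fold change, 0.942 to 1.23, leaves out a fall in the count of the size seen in the CDS line. Counting without a strand option adds any opposite-strand reads over Rps19bp1 exons to its count, and their part in either line was not tested. None of the 6 genes was called in the PAS comparison by edgeR, DESeq2 or limma-voom, and 1 had an unadjusted p under 0.05 in edgeR. Over all genes 0.00987% were called and 5.24% had such a p.

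Set against each other, the changes of Rps19bp1 in the 2 lines differed by -0.73 ± 0.13 on the log2 scale (SE), with a 95% confidence interval from -0.99 to -0.47. This interaction was 2nd of 20269 genes by p, after Atf4 with -2.92, but its adjusted p of 0.077 in edgeR missed the threshold. DESeq2 called it on the same counts, with an adjusted p of 0.000501, as did edgeR without CDS knockout 4 (0.0327) or without the library labelled PAS knockout 4 (0.00455), while the other libraries left out in turn gave up to 0.362. None of the 6 genes was called in edgeR for the interaction, where 0.00493% of all genes were. Rps19bp1 alone had an unadjusted p under 0.05 there, as had 4.16% of all genes. The controls of the lines had the same Rps19bp1 level, 13.9 ± 0.712 and 13.9 ± 0.535 CPM, a fold of 1.00 with an interval from 0.878 to 1.14. Mief1, on the other side of Atf4, was 43.6 ± 0.885 CPM in the CDS knockouts and 45.3 ± 2.12 in the CDS controls (0.963-fold, 0.904 to 1.03). PAS values were 46.8 ± 1.49 CPM in the libraries labelled knockout and 49.0 ± 2.78 in the controls (0.954-fold, 0.889 to 1.02). Neither change of Mief1 was called by edgeR (adjusted p = 1.0 and 0.986).

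**Figure D1:**
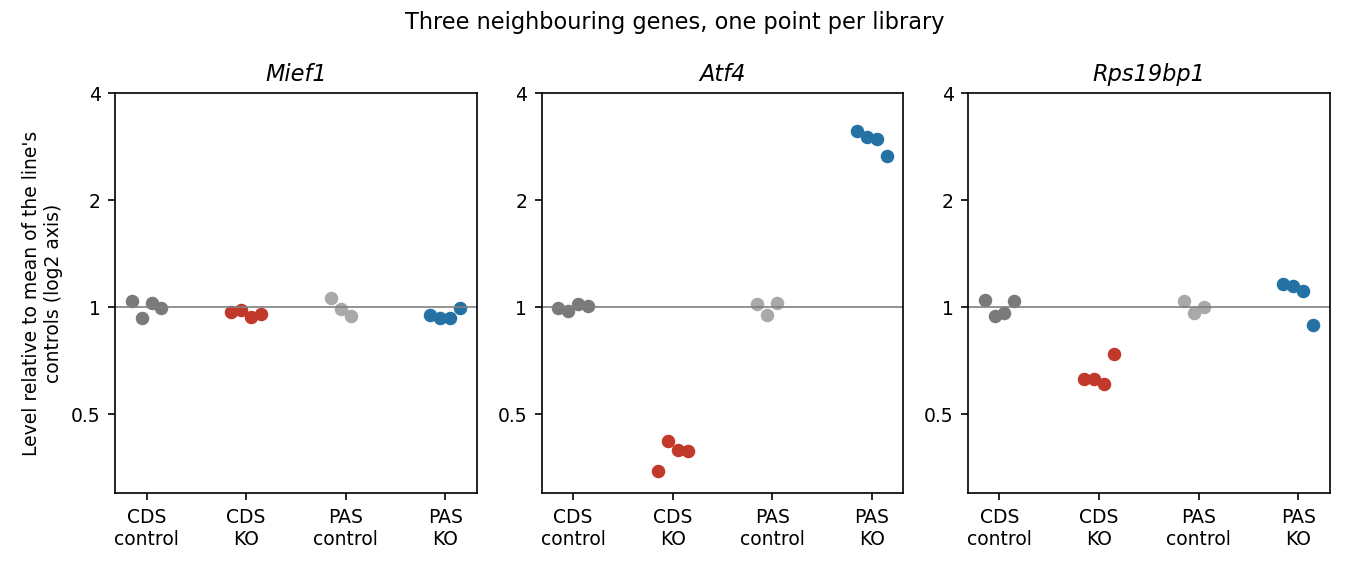
Levels of Mief1, Atf4 and Rps19bp1 in each of the 15 libraries, as normalised CPM relative to the mean of the controls of the same line (vertical log2 axis); each point is 1 library. Mief1 stays near 1 in every group, Atf4 is lower in the CDS knockouts and higher in the libraries labelled PAS knockout, and Rps19bp1 lies at 0.61 to 0.739 in the CDS knockouts and at 0.892 to 1.16 in those labelled PAS knockout.

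Sirt1, the deacetylase partner of RPS19BP1, did not pass the test in either line. Its level was 31.4, 31.1, 31.4 and 31.5 CPM in the CDS knockouts and 28.1, 28.3, 30.9 and 32.3 in the CDS controls. The knockouts lay closer together (SD 0.189) than the controls (SD 2.03), and the groups overlapped. The fold was 1.05 with a 95% confidence interval from 0.96 to 1.14 (edgeR adjusted p = 1.0). In the libraries labelled PAS knockout its level was 31.4, 32.1, 31.2 and 34.3 CPM, against 31.3, 29.1 and 36.6 in the PAS controls. The control values enclose those of the knockouts, and the fold was 0.999 (0.906 to 1.1, adjusted p = 1.0).

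Rps19, the ribosomal partner, was the most abundant of the 6. Its level was 309, 324, 328 and 315 CPM in the CDS knockouts and 337, 325, 300.0 and 304 in the CDS controls, and the groups overlapped. The fold was 1.01 with an interval from 0.939 to 1.08 (edgeR adjusted p = 1.0). In the libraries labelled PAS knockout it was 308, 277, 293 and 281 CPM, against 313, 317 and 271 in the PAS controls. The controls again enclose the knockouts, with a fold of 0.965 (0.892 to 1.04, adjusted p = 0.992). The intervals of Sirt1 and Rps19 in the CDS line exclude a change of the size that Rps19bp1 showed.

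**Figure D2:**
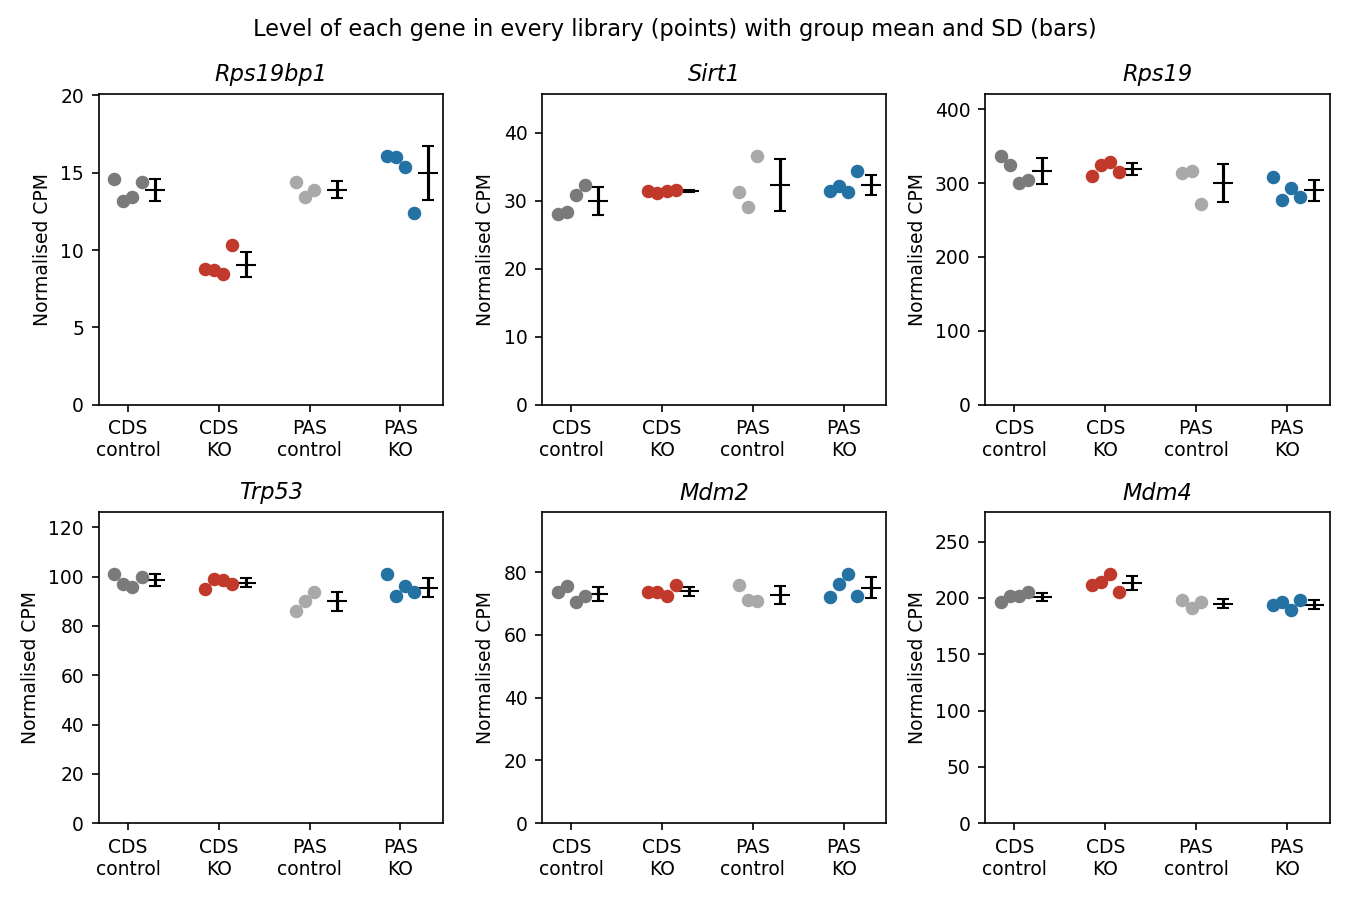
Normalised CPM of the 6 genes in each library (points), with the group mean and SD beside them (bars), on vertical axes that start at 0. Rps19bp1 in the CDS knockouts, at 8.48 to 10.3 CPM, lies below all other libraries, whereas the groups of the other 5 genes overlap between knockout and control in both lines.

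Trp53 itself was measured at 95.0, 99.0, 98.8 and 97.2 CPM in the CDS knockouts and at 101, 97.2, 96.0 and 100 CPM in the CDS controls. These overlap, and the fold was 0.989 with an interval from 0.936 to 1.04 (edgeR adjusted p = 1.0). In the libraries labelled PAS knockout its level was 101, 92.0, 96.1 and 93.6 CPM, and in the PAS controls 85.9, 90.2 and 93.8. Of the 4 libraries, 2 lay above every control. The log2 change of 0.09 ± 0.04 (SE) had an unadjusted p of 0.0495 and an adjusted p of 0.951 in edgeR, so it was not called. The largest difference of Trp53 was between the controls of the lines, 90.0 ± 3.98 against 98.6 ± 2.4 CPM. All 3 PAS controls lay below all 4 CDS controls, as did one group wholly beside the other in 9.46% of all genes in that comparison, and the fold of 0.912 (0.859 to 0.969) had an edgeR adjusted p of 0.262.

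Mdm2, both a target of p53 and the ligase that removes it, held the narrowest range of the 6 genes. It was 73.5, 73.6, 72.4 and 75.8 CPM in the CDS knockouts and 73.5, 75.6, 70.5 and 72.3 in the CDS controls. In the libraries labelled PAS knockout it was 72.1, 76.3, 79.3 and 72.4 CPM, against 75.9, 71.2 and 70.8 in the PAS controls. The highest of the 15 values was 1.12 times the lowest. The fold was 1.01 (0.956 to 1.07) for CDS and 1.03 (0.97 to 1.1) for PAS, with edgeR adjusted p of 1.0 and 0.992.

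Mdm4, which masks the activation domain of p53, showed the next smallest unadjusted p of the set in the CDS line. Its level was 211, 214, 221 and 205 CPM in the CDS knockouts and 196, 202, 202 and 205 in the CDS controls, so 3 of the 4 knockouts lay above every control. The log2 change was 0.08 ± 0.03 (SE), a fold of 1.06 (1.01 to 1.11), with an unadjusted p of 0.0297, which 2.62% of all genes in this comparison matched at 0.05. Its edgeR adjusted p was 1.0. In the libraries labelled PAS knockout Mdm4 was 194, 196, 189 and 198 CPM, against 198, 191 and 196 in the PAS controls, a fold of 0.995 (0.943 to 1.05, adjusted p = 0.999). Between the controls of the lines none of the 6 genes was called by edgeR, DESeq2 or limma-voom, where edgeR called 0.143% of all genes, and Trp53 alone had an unadjusted p under 0.05.

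**Figure D3:**
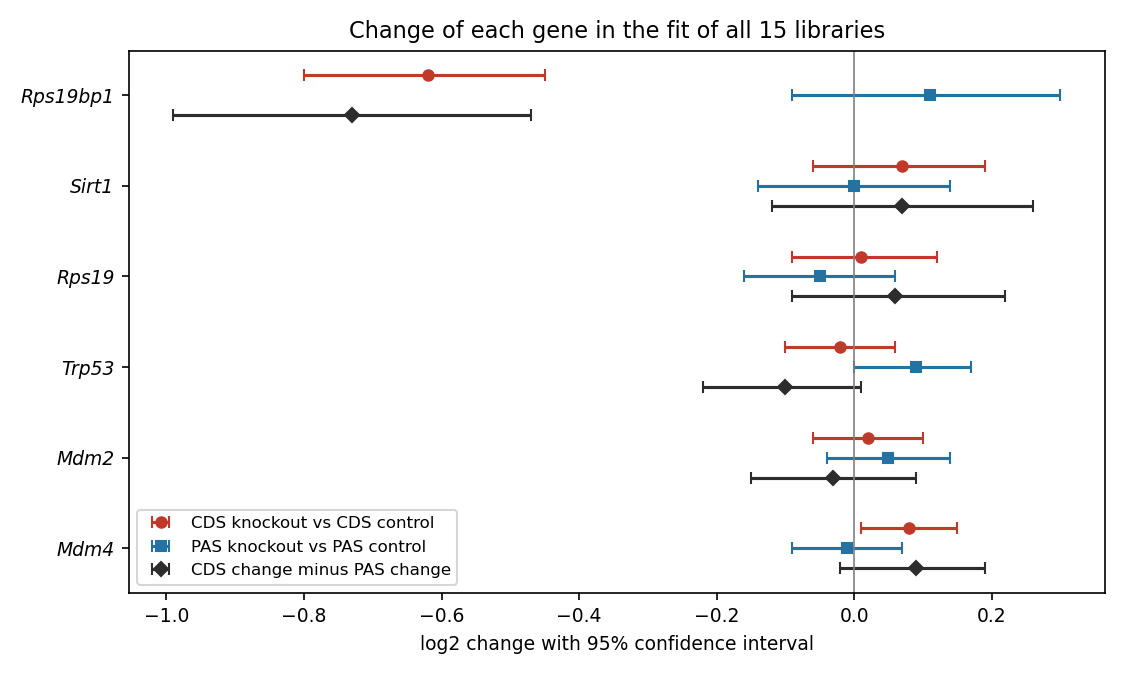
Log2 changes of the 6 genes with 95% confidence intervals from the fit of all 15 libraries (horizontal axis), for CDS knockout against control, PAS knockout against control and the difference between these. The CDS change of Rps19bp1, with its interval from -0.8 to -0.45, and its difference from the PAS change lie apart from the changes of the other 5 genes, which stay between -0.1 and 0.09.

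Levels of different genes were compared per length, as TPM (counts divided by the exonic length given in the files, with the same sum in each library). Over the 15 libraries the medians were 233 TPM for Rps19, 83.5 for Trp53, 50.9 for Mdm2, 47.6 for Mdm4, 44.5 for Rps19bp1 and 20.9 for Sirt1. Rps19 was first, Trp53 second and Sirt1 last in all 15 libraries. Mdm2, Mdm4 and Rps19bp1 were close, with ranges of 45.1 to 57.0, 45.9 to 51.3 and 24.7 to 53.5 TPM. The order of the medians held in 10 of the 15 libraries. In the other 5 these neighbours changed places, Rps19bp1 standing above Mdm4 in 1 CDS control and in 3 of the 4 libraries labelled PAS knockout. In all 4 CDS knockouts Rps19bp1 was 5th of the 6, at 28.8 ± 3.54 TPM (SD, n = 4), against 45.0 ± 2.6 in the CDS controls, 50.0 ± 5.84 in the libraries labelled PAS knockout and 46.0 ± 1.85 in the PAS controls. The length is that of all annotated exons merged, 4685 bases for Rps19 and 14798 for Mdm4, so the TPM of a gene with long alternative transcripts is understated.

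Ratios of counts within a library do not depend on scaling between libraries. Rps19bp1 had 2.83%, 2.69%, 2.58% and 3.25% as many counts as Rps19 in the CDS knockouts, against 4.32%, 4.05%, 4.46% and 4.75% in the CDS controls. Relative to Sirt1 it had 27.0% to 32.5% as many in the CDS knockouts and 43.3% to 51.8% in the CDS controls. Neither pair of groups overlapped. The log2 differences were -0.63 and -0.69, each with p = 0.0286 in an exact two-sided permutation test, the smallest that 4 against 4 allows. After Benjamini-Hochberg adjustment over 8 tests the p was 0.114. With groups of this size no outcome of the 8 tests could bring an adjusted p under 0.05, so the adjusted values cannot decide. The same ratios overlapped in the PAS line, at 4.41% to 5.79% against 4.22% to 5.13% for Rps19 (exact p = 0.286, adjusted 0.457) and at 36.1% to 51.1% against 38.0% to 46.1% for Sirt1 (exact p = 0.4, adjusted 0.457), where 0.0571 is the smallest p possible.

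Ratios within the p53 loop overlapped between knockout and control in both lines. Mdm2 had 73.3% to 78.0% as many counts as Trp53 in the CDS knockouts and 72.1% to 77.8% in the CDS controls (exact permutation p = 0.257, adjusted 0.457). The PAS libraries labelled knockout had 71.7% to 83.0% as many and their controls 75.5% to 88.3% (exact p = 0.629, adjusted 0.629). Relative to Mdm4, Mdm2 had 32.8% to 37.0% as many counts in the CDS knockouts and 34.9% to 37.5% in the CDS controls (exact p = 0.143, adjusted 0.381), and 36.6% to 41.9% against 36.2% to 38.2% in the PAS line (exact p = 0.4, adjusted 0.457).

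**Figure D4:**
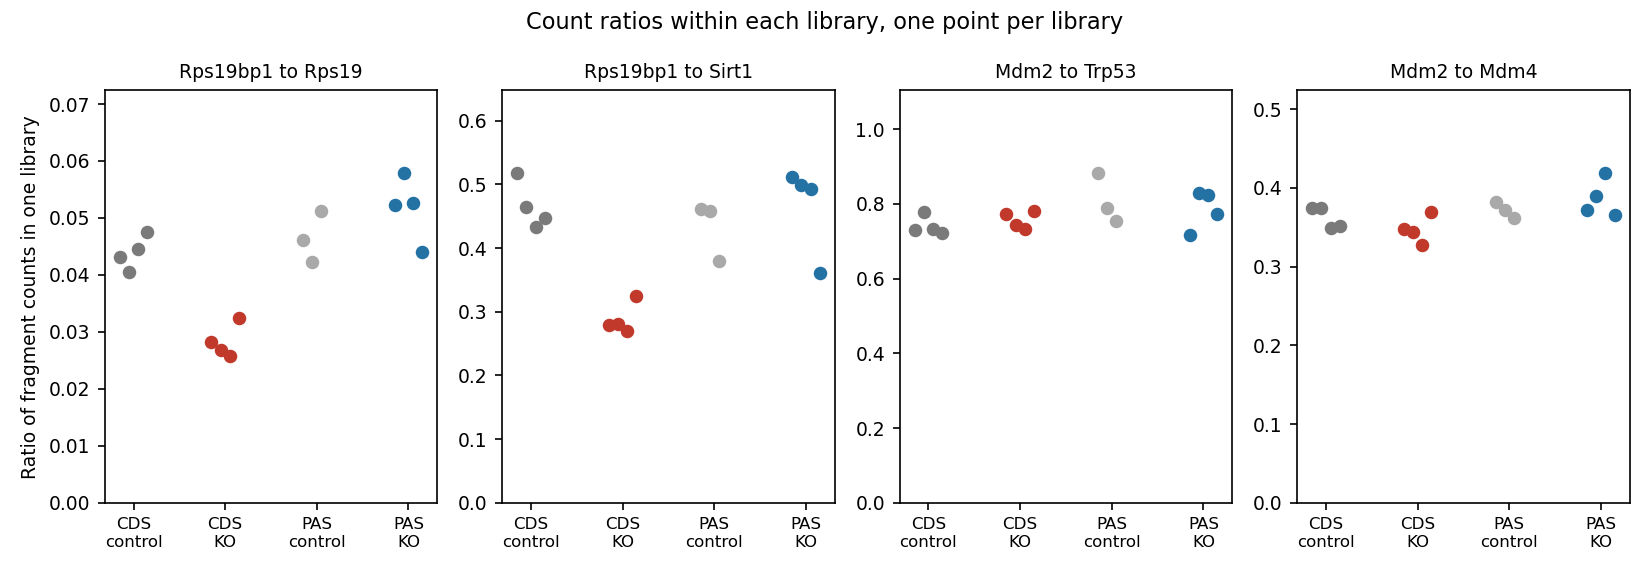
Ratios of fragment counts within each of the 15 libraries (vertical axes from 0), 1 point per library, by group. Rps19bp1 relative to Rps19 and to Sirt1 is lower in all 4 CDS knockouts than in all 4 CDS controls, and the ratios of Mdm2 to Trp53 and to Mdm4 overlap in both lines.

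The wider pathway was read from 10 lists with 119 genes, 117 of them tested. edgeR called none of them in any of the 4 comparisons, with 6 at an unadjusted p under 0.05 in the CDS line, 11 in the PAS line, 7 for the interaction and 19 between the controls. Over all genes the shares under that p were 2.62%, 5.24%, 4.16% and 9.6%. DESeq2 called Cdkn1a and Eda2r in the CDS line and Rps28 and Rps29 between the controls, and limma-voom called Cdkn1a in the CDS line. Of all 20269 genes DESeq2 called 20 in the CDS line and 101 between the controls, and limma-voom called 13 in the CDS line. Over all 20269 genes the median log2 change was -0.001 in both lines, with a median size of 0.06 for CDS and 0.08 for PAS.

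Other ubiquitin ligases and deubiquitinases that act on p53 had log2 changes from -0.09 to 0.02 in the CDS line, 8 of 10 negative with a median of -0.03. The PAS changes ran from -0.1 to 0.08, 7 of 10 positive with a median of 0.02. At the ends stood Otub1, whose product keeps p53 from being ubiquitinated, with -0.09 in the CDS line, and Stub1, a chaperone-linked ligase gene, with -0.1 in the PAS line, while the ligase gene Huwe1 had 0.08 there. The 15 kinases, acetyltransferases and cofactors of p53 ran from -0.08 to 0.09 in the CDS line, 11 of them negative, and from -0.1 to 0.1 in the PAS line, 10 of them positive. Their extremes were the DNA damage kinase genes Atm (-0.08) and Chek2 (0.09) in the CDS line and the acetyltransferase gene Ep300 (0.1) and the cofactor gene Ing1 (-0.1) in the PAS line. Of the p53 relatives and the Arf locus, Trp63 alone passed the filter, at a mean of 0.358 CPM and with log2 changes of -0.67 ± 0.38 and 1.2 ± 0.45 (SE) that were not called (edgeR adjusted p = 1.0 and 0.934). Trp73 and Cdkn2a, which codes for the MDM2 inhibitor ARF, had too few counts to test.

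Ribosomal and nucleolar proteins known to bind MDM2 or release p53 were split evenly in the CDS line, 8 of 16 positive with a median of 0.0 and values from -0.05 (Nop53) to 0.08 (Rps27l). For PAS, 12 of 16 were negative, with a median of -0.04 and values from -0.09 (Rps14) to 0.14 (Grwd1). Proteins of the head of the small subunit, where RPS19 sits, had a median of 0.01 in the CDS line, 8 of 14 positive, with Rps10 at 0.07. Of the 14, 13 were negative in the PAS line, with a median of -0.05, and Rps10 had -0.13. Between the controls of the lines 11 of the 14 were negative with a median of -0.1, and 6 had an unadjusted p under 0.05, against 9.6% of all genes. Assembly factors of the small subunit had medians of 0.02 and 0.0 in the lines, with Tsr3, which modifies the 18S ribosomal RNA, at 0.09 for CDS and -0.15 for PAS, Tsr2, known in yeast as an escort of Rps26, at -0.05 in the CDS line, and the assembly factor gene Tsr1 at 0.07 in the PAS line. Reads of ribosomal protein genes can be split with near-identical copies, whose counts were examined here for Rps19 and for none of the other ribosomal protein genes. The values of Rps10, which had a mean of 5.35 CPM against 350.0 for Rps20, are uncertain.

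On the Sirt1 side, the 6 other sirtuins had medians of -0.01 and -0.03 in the CDS and PAS lines. Their extremes were the nucleolar deacylase gene Sirt7 at 0.08 and the mitochondrial deacylase gene Sirt5 at -0.1 in the CDS line, and Sirt5 at 0.1 and the mitochondrial deacetylase gene Sirt3 at -0.13 in the PAS line. The 14 regulators of Sirt1 and genes of NAD metabolism had medians of 0.0 and 0.01. In the CDS line they ran from Hic1, a repressor of Sirt1, at -0.15 to the NAD synthesis gene Nmnat3 at 0.06. The PAS line had values from E2f1, a transcription factor that activates Sirt1, at -0.11 to the nicotinamide riboside kinase gene Nmrk1 at 0.28. SIRT1 substrates other than p53 had medians of -0.02 and 0.01. Foxo3, a stress-response transcription factor gene, had the highest value of these in the CDS line (0.09) and the lowest in the PAS line (-0.13), and the liver X receptor gene Nr1h3 the lowest (-0.08) and the highest (0.09), at a mean of 1.18 CPM.

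Of 24 genes known as p53 targets, 21 had a positive log2 change in the CDS line, with a median of 0.04 and 5 at an unadjusted p under 0.05, whereas the PAS line had 12 positive and 12 negative with a median of 0.0 and 4 at such a p. Over all genes 10022 of 20269 were positive in the CDS line and 2.62% had an unadjusted p under 0.05, against 10004 and 5.24% in the PAS line. The ends were Eda2r and Sesn2 (-0.05) in the CDS line and Eda2r and the cell death gene Bax (-0.09) in the PAS line. Eda2r, a death receptor-like gene, was 8.82, 10.9, 12.6 and 9.3 CPM in the CDS knockouts and 7.18, 6.36, 7.44 and 7.09 in the CDS controls, a log2 change of 0.57 ± 0.11 (SE, edgeR adjusted p = 0.0559). Cdkn1a, the p21 cell cycle inhibitor, was chosen after its values were seen. Its level was 27.6, 25.7, 27.8 and 24.4 CPM in the CDS knockouts and 20.2, 18.2, 23.2 and 17.9 in the CDS controls, a log2 change of 0.41 ± 0.08 (SE, edgeR adjusted p = 0.0559). For both genes all 4 CDS knockouts lay above all 4 controls, as groups lay apart in 2.8% of all genes, and the adjusted p was just over the threshold. For the PAS line Eda2r had a log2 change of 0.34 and Cdkn1a one of 0.31, both with an edgeR adjusted p of 0.934. Cdkn1a lay apart there too, at 22.6 to 28.6 CPM in the libraries labelled PAS knockout against 18.9 to 21.3 in the PAS controls. Eda2r overlapped, at 7.32 to 9.77 against 6.47 to 7.4 CPM. The share of all genes whose groups lay apart in the PAS line was not counted.

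**Figure D5:**
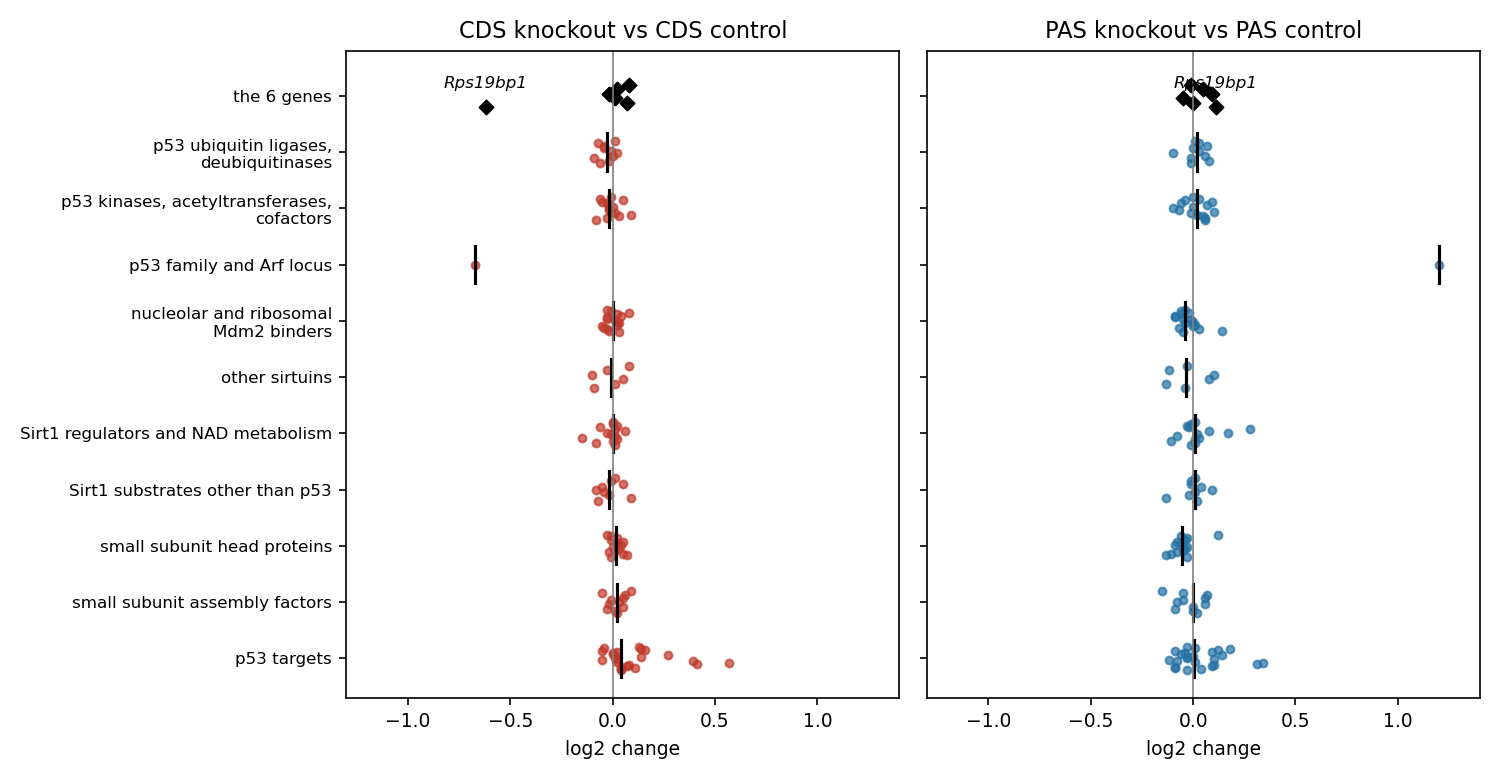
Log2 changes of the 6 genes (black diamonds) and of the tested members of 10 lists (points) in the CDS line and the PAS line, with a vertical bar at the median of each list. Rps19bp1 in the CDS line stands at -0.62, most list members lie between -0.15 and 0.15, the p53 targets reach 0.57 in the CDS line, and the single point of the p53 family is the low-count gene Trp63.

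The genes whose log2 CPM followed each of the 6 most closely over the 15 libraries were found among 14177 named genes with a mean of at least 1 CPM. For Rps19bp1 they were Asrgl1, an asparaginase-like gene (r = 0.839), Atf4 itself (0.836) and Eif2s3x, which codes for a subunit of the initiation factor eIF2 (0.813). Much of that likeness is the distance between CDS knockouts and the rest, and within groups, on residuals from the group means, r was 0.722, 0.527 and 0.611. Rps19 was followed closely by the ribosomal protein genes Rps20 (0.955) and Rpl17 (0.946), with 0.932 and 0.908 on residuals. Sirt1 was followed by Hdgfl3 (0.887), Ikzf4 (0.87) and Rbm26 (0.868), with 0.931, 0.846 and 0.867 on residuals. Trp53 was followed by Tmx1 (0.864), Cdca4 (0.862) and Gm13680 (0.846). Mdm2 was followed by Ankrd61 (0.81), Tdrd12 (0.807) and Dtna (0.788), and Mdm4 by Gm15564 (0.912), Lars2 (0.909) and 1700058P15Rik (0.906). These values describe 15 libraries that share depth and line, with the highest taken from many genes, and no test was made of them.

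Among the 6 genes 15 pairs were compared. Sirt1 and Rps19 varied in opposite directions over the 15 libraries, with Pearson's r = -0.799 (permutation p = 0.00022, adjusted over the pairs 0.0016) and Spearman's rho = -0.679 (permutation p = 0.0068, adjusted 0.051). The permutations shuffled the libraries without regard to group or line. How many other genes follow Rps19 or Sirt1 this closely was not counted, so the r may not be particular to this pair. Without the 2 libraries farthest from the median of Sirt1, r was -0.623. Within the lines it was -0.649 over the 8 CDS libraries and -0.829 over the 7 PAS libraries, and on residuals from the group means it was -0.853. The highest Sirt1 value, 36.6 CPM, and the lowest Rps19 value, 271 CPM, were in the same library, PAS control 3. Since the CDS knockouts form a cluster of their own in Rps19bp1, no pooled correlation is given for its 5 pairs. With Mdm4, r was -0.481 on residuals from the group means over the 15 libraries and -0.312 over the 7 PAS libraries, both given with no test. On residuals, r of Rps19bp1 with the other members ran from -0.157 for Sirt1 to 0.415 for Mdm2. None of the other 9 pairs without Rps19bp1 had an adjusted permutation p under 0.05 for either coefficient.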

How the data were processed

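RNA-seq libraries of ventricles were used as labelled, 15 in 4 groups by title. The labels conflict on library making: the design text names ventricle and a stranded poly(A) kit, the extraction protocol cultured cortical neurons and ribosomal RNA depletion. Each deposited file gives unnormalised fragment counts and an exonic length for every gene, made by the authors with featureCounts 2.1.1 over exons of GENCODE mouse release M37 (GRCm39) with no strand option, per the file headers. The aligner behind them is not given in the sources used here; the submitters' processing notes list HISAT2 2.2.1 and STAR 2.7.11b. Names came by identifier from GENCODE M21 and matched 51487 of 78317 genes, which held 98.85% of counts.

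From the counts, edgeR 4.0.16 kept 20269 genes (filterByExpr, minimum count 10), scaled library sizes by trimmed mean of M values (factors 0.986 to 1.01) and fitted all 15 libraries in one quasi-likelihood model with 11 residual degrees of freedom; a gene was called below 0.05 after Benjamini-Hochberg adjustment over all genes tested, and the biological coefficient of variation was 7.44%. Intervals are at 95%. TPM and count ratios were computed from the deposited counts and lengths, and ratios were tested by exact permutation (scipy 1.17.1). Correlations used log2(CPM + 0.5), with 100000 permutations for the pairs of members. Replicates were biological ones, as the design text has it, and no replicate pair was within sampling noise. Settings tried were DESeq2 1.42.0, its size factors, limma-voom (limma 3.58.1), no filter, no robust dispersion, a replicate block, the compared groups alone, and libraries left out.

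The named genes are the 6 members, Atf4 and Mief1, the ends of each list by log2 change at a mean of at least 1 CPM in each line, any called list member, and the 3 genes most like each member; some genes that the rule takes are not reported here. Cdkn1a, the other genes called in the CDS line, and Rps28, Rps29, Trp63, Trp73 and Cdkn2a were named after their values were seen. The members and lists were chosen with earlier results of these data known. Counts limit precision: for Rps19bp1, counting error alone gives a coefficient of variation of 4.47% to 5.44% per library, by group.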

Additional observations from a re-analysis of the deposited data

Results flagged for a closer look

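Of 120 sets of 4 libraries looked at for a library far from the others, 5 were flagged, where chance flags about 1 in 20. Rps19bp1 was 10.3 normalised CPM in CDS knockout 4, against 8.48 to 8.75 in the other CDS knockouts. The count ratio of Rps19bp1 to Sirt1 was 0.361 in the library labelled PAS knockout 4, against 0.493 to 0.511 in the others of that group. Nop53, a nucleolar protein gene, was 92.3 CPM in CDS knockout 2, against 96.7 to 97.4 in the others. Sirt5 was 15 CPM in CDS control 1, against 12.8 to 13.0. Foxo3 was 65.6 CPM in the library labelled PAS knockout 3, against 55.1 to 56.2. The change of Atf4 differed between the lines by -2.92 on the log2 scale (CDS minus PAS, edgeR adjusted p = 3.88e-17).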

How the results depend on the processing

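The fall of Rps19bp1 in the CDS line was called under every setting run, with log2 changes from -0.67 to -0.62 over 8 other settings and from -0.68 to -0.59 when each library was left out in turn. Its difference between the lines was -0.73 with DESeq2 and -0.73 without a filter on low counts, both past the threshold. The threshold was missed in the other settings, with edgeR or limma adjusted p-values of 0.0671 with limma-voom, 0.0788 with the DESeq2 size factors, 0.184 without robust dispersion, 0.135 without CDS knockouts 3 and 4 and 0.383 with a replicate block. The difference ran from -0.81 to -0.69 with 1 library left out, past it in 2 of 15 cases; members called for that difference were then 0 to 1, and 1 with DESeq2 and 1 without a filter. In the CDS line 11 genes were called, against 20 with DESeq2 and 31 without a filter. In the PAS line 2 were called, against 7 with DESeq2, 7 without a filter and 1 with the compared groups alone. For the interaction 1 was called, against 2 with DESeq2, 2 with limma-voom, 3 without a filter and 1 to 2 with 1 library left out. Between the controls 29 were called, against 101 with DESeq2, 201 without a filter, 10 with those groups alone and 15 to 43 with 1 library left out, 15 without PAS control 1. The unfiltered fit tests 49584 genes; for the other settings the cause was not tested. Eda2r in the CDS line was called with DESeq2 and without a filter, and Cdkn1a with these, limma-voom and the replicate block. In the settings that did not call them the adjusted p reached 0.808 for Eda2r and 0.457 for Cdkn1a (edgeR or limma). With 1 library left out the edgeR adjusted p ran from 0.0267 to 0.368 for Eda2r and from 0.0047 to 0.353 for Cdkn1a.

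Signs that turned were all of values near 0 that were not called. With CDS knockouts 3 and 4 left out Rps10 was -0.02 in the CDS line. Sirt1 in the PAS line was 0.01 with limma-voom and 0.0 without a filter, and Rps19bp1 between the controls was -0.02 without a filter. Leaving out 1 library gave ranges in the CDS line of -0.01 to 0.04 for Rps19, -0.02 to 0.07 for Stub1, -0.18 to 0.01 for Nr1h3, 0.0 to 0.12 for Rps10 and -0.1 to 0.04 for Sesn2. In the PAS line they were -0.07 to 0.1 for Sirt1, -0.02 to 0.01 for Mdm4, -0.05 to 0.18 for Nr1h3 and -0.15 to 0.0 for Bax. For the interaction they were -0.03 to 0.14 for Sirt1 and -0.03 to 0.05 for Mief1, between the controls -0.03 to 0.03 for Rps19bp1 and -0.04 to 0.01 for Mdm2, and for the ratio of Mdm2 to Trp53 in the PAS line -0.09 to 0.02.

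The replicate numbers did not pair the samples: same-numbered libraries of a line had correlations of their deviations from -0.322 to 0.0901, and 3 of 15 libraries correlated best with their own number. With a replicate block 12 genes were called in the CDS line, 2 in the PAS line, 1 for the interaction and 23 between the controls, Rps19bp1 kept -0.62 in the CDS line (adjusted p = 0.00418), and its difference between the controls was 0.0. Depth limits the low genes most, among them Trp63 and Nr1h3.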
